A study of Mus musculus with 6 samples.

Results

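The 10 genes described here encode tensins and other adaptors of focal adhesions: the tensins Tns1, Tns2 and Tns3, the talin Tln1, vinculin (Vcl), zyxin (Zyx), paxillin (Pxn), the integrin-linked kinase Ilk, the focal adhesion kinase Ptk2 and the parvin Parvb. All 10 were found by symbol among the 51912 genes of the deposited count table. They were chosen by name as a family after Tns1 had been noted as higher in these same libraries, so the comparison of genotypes chose Tns1, and its values in that comparison are given as a description. The cells came from the testis of C57BL/6J mice on postnatal day 4 and were sorted as THY1+ and c-KIT-, a surface pattern used to enrich spermatogonial stem cells, the cells that maintain the male germ line. RNA was amplified by Smart-Seq2, a full-length cDNA method for small amounts of RNA, in 3 wild type and 3 Bud31-vKO libraries. Bud31-vKO mice carry a deletion of Bud31, a protein of the spliceosome, made with Cre recombinase and loxP sites. The labels name neither the promoter that drives Cre nor the exons removed, and nothing says whether a library holds 1 animal or several, so p-values measure only the spread between these libraries, which may be technical. The table letters its columns C and T, which were read as wild type and Bud31-vKO. The labels do not spell these letters out.

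Focal adhesions are the places where a cell grips the matrix around it. Integrins span the membrane and bind matrix proteins such as fibronectin and laminin, and on the inner side talin binds the integrin tail and links it to actin, with vinculin reinforcing that link under tension. Paxillin is a scaffold, the focal adhesion kinase and the integrin-linked kinase with its parvin partners carry signals, zyxin gathers at actin fibres under strain, and tensins bind both integrin tails and actin and mark the mature, fibrillar adhesions that lie along the matrix. In the testis, spermatogonial stem cells rest on the basement membrane through integrins, while the peritubular and interstitial cells around the tubules are rich in focal adhesion proteins.

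Library totals ranged from 13240704 to 18744466 reads, and reads were found for 12464 to 22300 genes. Wild type library 3, with 13762 genes, and Bud31-vKO library 2, with 12464 genes, stood apart with few genes detected, so results that rest on them are also given from the 4 fuller libraries, which are wild type libraries 1 and 2 and Bud31-vKO libraries 1 and 3. The biological coefficient of variation, which leaves counting error aside, was 119% between libraries over the 15240 genes tested. Levels are in CPM, reads scaled to a common library total with TMM factors. Bud31 measured 131 ± 31.1 CPM in wild type against 65.1 ± 16.7 CPM in Bud31-vKO (n = 3 each, SD) and every wild type library, at 96.8 to 158 CPM, exceeded all Bud31-vKO libraries, at 47.2, 67.6 and 80.4 CPM. In Bud31, 15.2% of exon bases overlap Ptcd1 on the opposite strand. Germ cell markers were present in all 6 libraries, although 0 to 3 of the 13 had no reads in a given library. Dazl, an RNA-binding protein of germ cells, was the most abundant of them. Markers of stromal fibroblasts were more abundant still. The 8 of them summed to between 10393 and 21739 CPM in wild type and between 8434 and 14674 CPM in Bud31-vKO, against 3581 to 4184 CPM and 1821 to 2694 CPM for the germ cell markers. The adaptors are known from both kinds of cell, and in such pooled cells fewer cells of a type and less RNA per cell cannot be told apart.

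The tensin genes differ in the DNA before their start sites. The 250 bases before the RefSeq start site (GRCm38.p6), 5′ to 3′ on the gene's own strand, are shown for the 3 tensins, because Tns1 had the largest fold change of the family, and for Vcl, because it held a binding motif of SRF, a factor that drives actin and adhesion genes. Capitals mark GGGCGG on either strand, and in Vcl also the CArG box.
Tns1, chr1:74124549-74124798, minus strand: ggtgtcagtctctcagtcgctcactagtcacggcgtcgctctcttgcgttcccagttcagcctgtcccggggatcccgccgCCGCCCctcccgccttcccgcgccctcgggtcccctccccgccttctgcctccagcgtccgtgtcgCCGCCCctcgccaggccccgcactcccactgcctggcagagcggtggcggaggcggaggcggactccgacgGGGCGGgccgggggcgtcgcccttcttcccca
Tns2, chr15:102102684-102102933, plus strand: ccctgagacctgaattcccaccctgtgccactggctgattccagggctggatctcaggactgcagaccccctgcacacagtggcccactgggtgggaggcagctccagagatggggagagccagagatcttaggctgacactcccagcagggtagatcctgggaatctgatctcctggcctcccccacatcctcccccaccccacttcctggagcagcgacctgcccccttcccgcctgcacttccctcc
Tns3, chr11:8664536-8664785, minus strand: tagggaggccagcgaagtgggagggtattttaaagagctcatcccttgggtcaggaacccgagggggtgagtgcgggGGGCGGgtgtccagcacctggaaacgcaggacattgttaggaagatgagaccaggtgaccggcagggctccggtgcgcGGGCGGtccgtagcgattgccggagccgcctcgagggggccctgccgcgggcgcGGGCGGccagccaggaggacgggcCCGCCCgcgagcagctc
Vcl, chr14:20929148-20929397, plus strand: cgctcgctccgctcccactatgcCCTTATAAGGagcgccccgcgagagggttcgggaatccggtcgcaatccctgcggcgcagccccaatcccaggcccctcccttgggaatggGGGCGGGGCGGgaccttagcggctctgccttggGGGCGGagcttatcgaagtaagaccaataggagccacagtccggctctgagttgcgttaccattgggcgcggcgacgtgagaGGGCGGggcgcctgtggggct
GGGCGG, the core of a GC box, was matched 3 times in Tns1, 4 times in Tns3, 4 times in Vcl, where the first 2 matches overlap, and 0 times in Tns2. It occurs in 32.7% of the 32851 promoters of the same length in the RefSeq table. The CArG box, the motif bound by SRF, was matched on both strands at 1 place in Vcl, 227 bases before the start site, as CCTTATAAGG. It occurs in 1.47% of all promoters, and none was matched in the same window of the other members with an entry (Tns1, Tns2, Tns3, Tln1, Zyx, Ilk and Parvb). CCAAT, searched on both strands, was matched 3 times in Vcl and in 33.8% of all promoters. TATAAA was matched in none of these members and in 12.4% of all promoters. The Tns1 window held 74.4% G and C, the Tns3 window 69.6%, the Vcl window 67.2% and the Tns2 window 63.6%. The Tns2 start site in RefSeq lies inside the longer GENCODE gene, so other transcripts of Tns2 begin elsewhere.

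Tns1, a tensin that links integrins to actin in fibrillar adhesions, was higher in Bud31-vKO. In wild type, libraries 1 to 3 held 57.8, 62.9 and 55.0 CPM, and in Bud31-vKO 136, 184 and 156 CPM, in the order used from here on. Every Bud31-vKO library exceeded all wild type libraries. The wild type libraries lay within 1.14 times of each other and the Bud31-vKO libraries within 1.36 times. Tns1 was chosen for its difference between these libraries, so the gap between the genotypes is a description only. The log2 fold change was 1.44 (standard error 0.34, 95% interval 0.66 to 2.22), a level 2.71 times as high. The 4 fuller libraries gave 1.29 (standard error 0.34). Each library held at least 793 Tns1 reads, so its counting error is below the spread between libraries. Tns1 (ENSMUSG00000055322) spans bases 73910231 to 74124449 of chromosome 1 in GRCm38, minus strand. None of its exon bases overlap those of another gene, and 0.0367% of its 50-base windows occur in another gene's transcripts.

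Tns2 and Tns3, the other tensins measured, had fold changes in the same direction with groups that overlapped. Tns2, a tensin best known from the podocytes of the kidney, measured 47.2, 35.2 and 19.4 CPM in wild type against 34.8, 96.9 and 60.4 CPM in Bud31-vKO. Bud31-vKO library 2 was the highest and Bud31-vKO library 1 lay below wild type libraries 1 and 2. Its log2 fold change was 0.92 (95% interval -0.52 to 2.35), and in the 4 fuller libraries it was 0.22 (95% interval -1.03 to 1.46). Tns3 measured 21.9, 18.1 and 8.79 CPM in wild type against 59.2, 6.92 and 36.5 CPM in Bud31-vKO. Bud31-vKO library 2 was here the lowest of all 6, while the other Bud31-vKO libraries lay above every wild type library. The log2 fold change of Tns3 was 1.07 (95% interval -1.19 to 3.34), and 1.27 (95% interval -0.05 to 2.60) in the 4 libraries. It was 0.43 when Bud31-vKO library 1 was left out. Bud31-vKO library 2 thus held the highest level of Tns1 and Tns2 and the lowest of Tns3. Tns2 lies on chromosome 15 from 102100413 to 102116401 and Tns3 on chromosome 11 from 8431652 to 8664535, and neither shares exon bases or 50-base windows with another gene. Tns4, named after its values were seen, the short tensin that lacks the actin-binding part, had 5 reads in wild type library 1, 2 reads in Bud31-vKO library 3 and none in the others, which is at or near the floor of 3 reads.

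**Figure D1:**
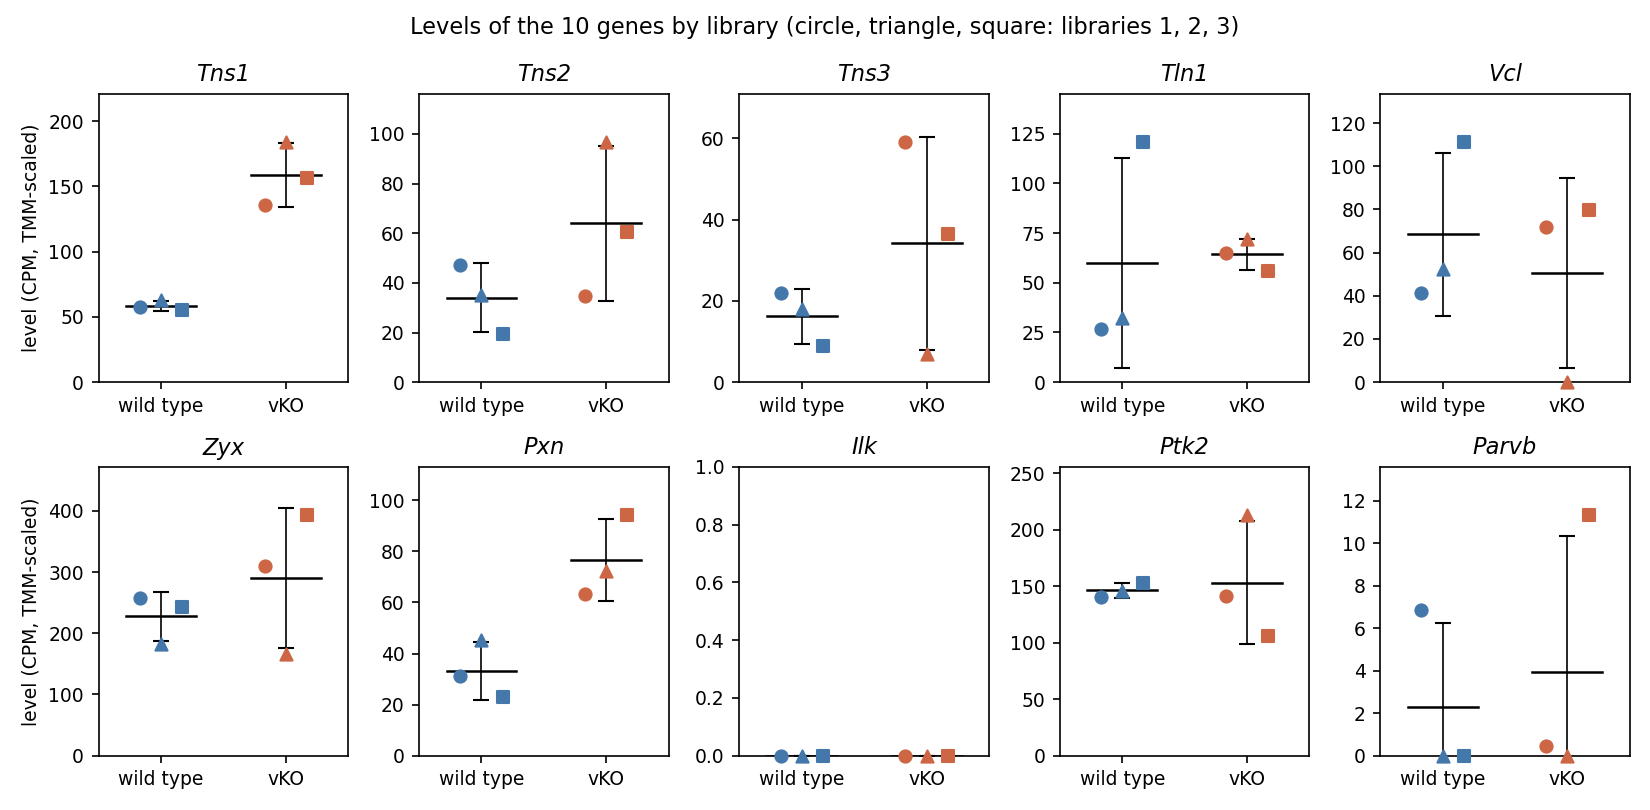
Levels of the 10 genes in TMM-scaled CPM on linear axes from 0, with 1 point per library, the mean as a line and SD as whiskers, drawn only above 0 (n = 3 libraries per genotype). The 3 Tns1 points of Bud31-vKO lie between 136 and 184 CPM, above the wild type points at 55.0 to 62.9 CPM, while Vcl is at 0.143 CPM in Bud31-vKO library 2 and Ilk is at 0 throughout.

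Tln1 and Vcl, the pair that couples integrins to actin, varied widely within a genotype, by 4.50 times for Tln1 in wild type and by 560 times for Vcl in Bud31-vKO. Tln1, the talin of most tissues, measured 26.9, 32.5 and 121 CPM in wild type against 65.1, 71.8 and 56.1 CPM in Bud31-vKO. The 3 Bud31-vKO libraries were close together and lay between wild type library 3 and the other wild type libraries. The log2 fold change of 0.10 (95% interval -1.42 to 1.62) became 1.04 (95% interval -0.05 to 2.13) in the 4 fuller libraries, and 1.14 when wild type library 3 alone was left out. Vcl measured 41.5, 52.4 and 111 CPM in wild type against 71.6, 0.143 and 79.9 CPM in Bud31-vKO. In Bud31-vKO library 2 it had 2 reads, under the floor of 3 reads, where the other libraries had at least 569. The log2 fold change of -0.44 (95% interval -3.68 to 2.81) turned to 0.15 when Bud31-vKO library 2 was left out, to 0.12 when wild type library 3 was, and to 0.70 (95% interval -0.28 to 1.68) in the 4 libraries, while limma-voom gave -2.72 in all 6. Wild type library 3 held the highest level of both genes, and its summed level of stromal fibroblast markers, 21739 CPM, was also the highest of the 6. The part of stromal cells in the Tln1 and Vcl levels was not tested. Tln1 lies on chromosome 4 from 43531519 to 43562691, and 3.67% of its exon bases overlap Creb3 on the opposite strand. Vcl lies on chromosome 14 from 20929398 to 21033676, and 25.5% of its exon bases overlap Ap3m1 on the opposite strand. Reads that lie within these shared bases can be assigned to Vcl or Ap3m1 only by a count that uses strand. Ap3m1 was counted at 635 reads in Bud31-vKO library 2, so the low Vcl count there did not extend to its neighbour.

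Pxn, the paxillin scaffold that recruits kinases to the adhesion, was the other member whose groups did not overlap. It measured 31.3, 45.2 and 22.9 CPM in wild type against 63.2, 72.2 and 94.2 CPM in Bud31-vKO. Each Bud31-vKO library lay above every wild type library, and the lowest Bud31-vKO level exceeded the highest wild type level by less than the range within wild type. The log2 fold change was 1.21 (standard error 0.51, 95% interval 0.03 to 2.38), a level 2.31 times as high, and it was 1.05 (95% interval -0.07 to 2.17) in the 4 fuller libraries. Pxn (ENSMUSG00000029528) lies on chromosome 5 from 115506676 to 115555987 with no overlap with exons of other genes.

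Zyx and Ptk2 had the highest mean levels of the members in wild type, in CPM. Zyx, a LIM-domain protein that helps repair strained actin fibres, measured 258, 183 and 243 CPM in wild type against 309, 167 and 393 CPM in Bud31-vKO. Bud31-vKO library 2 was the lowest of all and the other Bud31-vKO libraries were the highest. Its log2 fold change was 0.34 (95% interval -0.52 to 1.21), and 0.68 (95% interval -0.13 to 1.5) in the 4 fuller libraries. Ptk2, the kinase that integrins activate, measured 140, 146 and 153 CPM in wild type against 141, 213 and 106 CPM in Bud31-vKO. The wild type libraries lay within 1.09 times of each other, inside the range of the Bud31-vKO libraries. Its log2 fold change was 0.07 (95% interval -0.75 to 0.89). That of the 4 libraries was -0.20 (95% interval -1.03 to 0.63), so a 2-fold difference in either direction lay outside the interval of the 6 libraries, and a 2-fold lower level just inside that of the 4. Zyx lies on chromosome 6 from 42349630 to 42360213, and 4.38% of its exon bases overlap Epha1 on the opposite strand. Ptk2 lies on chromosome 15 from 73205102 to 73423280 with no exon overlap.

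Ilk and Parvb, which form a complex beneath integrins, could not be compared in the 6 libraries. Ilk, the kinase-like scaffold of that complex, had no reads in any library. A count of 0 allows up to 3 reads, or 0.166 to 0.222 CPM depending on the library. Ilk lies on chromosome 7 from 105736592 to 105742925, and 89.7% of its exon bases lie within exons of Taf10 or Rrp8 on the opposite strand. The count of Taf10 was 164, 131 and 0 in wild type against 152, 1 and 53 in Bud31-vKO, and that of Rrp8 was 452 to 1542. Among the 327 protein-coding genes of the table with over 75% of their exon bases in another gene's exons, 240 (73.4%) had no reads in any library, against 24.1% of the 15408 without such overlap and 6.14% of the 5194 with up to 25%. A count of 0 for Ilk is therefore given as listed and not as a level of the transcript. Parvb, a parvin that binds Ilk and actin, had 94 reads in wild type library 1, 6 in Bud31-vKO library 1, 153 in Bud31-vKO library 3 and none in the others. It did not pass the filter on low counts. In the 4 fuller libraries it passed, and its log2 fold change there was 0.79 (95% interval -5.60 to 7.17). Among their partners, named after their values were seen, Parva, another parvin, measured 35.4 ± 19.6 CPM in wild type against 46.3 ± 45.0 CPM in Bud31-vKO, and Lims1, the LIM protein PINCH that completes the complex, 205 ± 43.7 and 203 ± 54.0 CPM (n = 3 each, SD).

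Compared per kilobase of annotated exon, the order of levels in wild type ran from Zyx to Parvb. Levels on this scale in wild type were 42.3 ± 7.43 CPM per kilobase for Zyx, 12.4 ± 0.55 for Ptk2, 8.35 ± 4.59 for Vcl, 6.23 ± 2.56 for Tns2, 6.13 ± 5.39 for Tln1, 4.04 ± 1.37 for Pxn, 3.66 ± 0.25 for Tns1, 1.45 ± 0.602 for Tns3 and 0.517 ± 0.896 for Parvb (n = 3 each, SD). Zyx stood above Ptk2 in each library, and Tns1 above Tns3 in each wild type library. The neighbours from Ptk2 to Tns1 in this order overlapped in their library values. In Bud31-vKO the order placed Zyx at 53.7 ± 21.2, Ptk2 at 13 ± 4.63, Tns2 at 11.7 ± 5.73, Tns1 at 9.92 ± 1.52 and Pxn at 9.34 ± 1.94 CPM per kilobase (n = 3 each, SD). Tln1, Vcl, Tns3 and Parvb followed at 6.56, 6.17, 3.06 and 0.887 CPM per kilobase. The 4 genes from Ptk2 to Pxn overlapped with one another. Tns1 was thus among the lower members in wild type and overlapped Tns2, Pxn and Ptk2 in Bud31-vKO. The length used spans all exons annotated for a gene, so a gene that uses its shorter transcripts is placed too low.

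**Figure D2:**
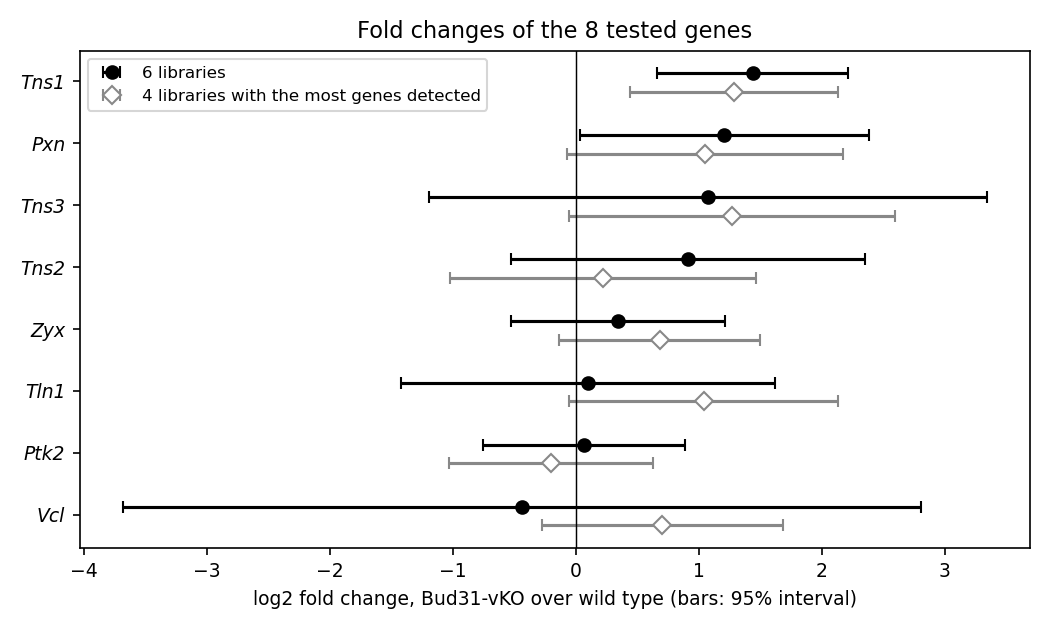
Log2 fold changes of the 8 tested genes, Bud31-vKO over wild type, with 95% intervals from edgeR, in all 6 libraries (black circles) and in the 4 libraries in which most genes were detected (open diamonds). Only the interval of Tns1, which this contrast chose, lies above 0 in both sets, from 0.66 to 2.22 and from 0.44 to 2.13. The 4 libraries are part of the 6, so nothing is read from these Tns1 intervals. Vcl, Tln1 and Ptk2 move across or away from 0 between the sets.

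Over the members, 8 passed the filter on low counts, and 7 of these 8 had a log2 fold change above 0, against 51.1% of all tested genes. Their median was 0.63, against 0.02 over all tested genes. Both values include Tns1, which was chosen on this contrast, and without it 6 of 7 were above 0 with a median of 0.34. The smallest values behind this count, 0.07 for Ptk2 and 0.10 for Tln1, were far smaller than their standard errors of 0.35 and 0.66. With edgeR's quasi-likelihood test and Benjamini-Hochberg adjustment over all genes, 0 of the 8 members passed, as did 0% of all genes (adjusted p = 0.9997 for each member). At an unadjusted p under 0.05 there were 2, Tns1 and Pxn, both higher, against 1.08% of all genes higher and 1.82% lower. DESeq2 called Tns1 alone, among 0.255% of genes called higher, and limma-voom called none. Groups did not overlap for 2 of 8, both higher in Bud31-vKO, against 4.76% of all genes higher and 6.39% lower, and nothing is read from the Tns1 call or overlap, since that contrast chose it. Without Bud31-vKO library 2 the count without overlap was 4 of 8, Tns1, Pxn, Tns3 and Zyx, against 14.9% of all genes higher. Without wild type library 3 it was 3 of 8, Tns1, Pxn and Tln1, against 6.64%. The 4 fuller libraries gave 6 of 8, with Tns2 and Ptk2 the exceptions, against 19.6%, with a median of 0.87 over the 8 and of 0.70 without Tns1. The members do not stand for separate samples, and these counts were not tested.

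The other genes of the pathway were taken from lists of adaptors, receptors, ligands and target genes. In all 4 lists, 0 genes passed by edgeR over all genes. The genes named from these lists were mostly the 3 of smallest unadjusted edgeR p at a mean of at least 5 CPM. Their differences between the genotypes are thus partly fixed by that choice. Of all tested genes, 4.76% were higher without overlap and 6.39% lower. Medians in the 4 fuller libraries were 0.25 for adaptors and kinases, -0.19 for integrin receptors, 0.46 for matrix ligands and -0.01 for SRF and YAP targets, against 0.06 over all genes tested there. Of 44 other adaptors and kinases tested, 24 were above 0 and 20 below, with a median log2 fold change of 0.10. At an unadjusted p under 0.05 there were 2 higher and 0 lower, against 1.08% and 1.82% of all tested genes. DESeq2 called 0, where it called 0.255% of all genes higher. Groups did not overlap for 3 higher and 1 lower of the list. Dlc1, a protein that binds tensins and talin, measured 62.7, 42.1 and 7.98 CPM in wild type against 133, 176 and 125 CPM in Bud31-vKO, with no overlap (log2 fold change 1.94, standard error 0.70). Lpxn, a paxillin relative of blood cells, measured 5.83, 4.42 and 1.11 CPM in wild type against 6.94, 112 and 18.7 CPM in Bud31-vKO. Most of that difference lay in Bud31-vKO library 2, and the log2 fold change of 3.60 was 1.33 (95% interval -1.29 to 3.95) in the 4 fuller libraries. That of Dlc1 was 1.31 there. Pip5k1c, which makes the lipid that opens talin, measured 101 ± 43.6 CPM in wild type against 48.1 ± 32.2 CPM in Bud31-vKO (n = 3 each, SD), with overlapping groups and a log2 fold change of -1.08, or -0.48 in the 4 fuller libraries.

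Integrin receptors had a median of -0.28, with 7 of 19 tested genes above 0 and 12 below. At an unadjusted p under 0.05 there was 1 higher and 0 lower, against 1.08% and 1.82% of all tested genes, and DESeq2 called 0. Groups did not overlap for 2 higher and 1 lower of the list, against 4.76% and 6.39% of all genes. Itga3, the alpha chain of a laminin receptor, measured 14.2, 16.9 and 2.79 CPM in wild type against 84.4, 135 and 39.2 CPM in Bud31-vKO, with no overlap (log2 fold change 2.93, standard error 0.85). Itga6, the laminin receptor chain used to enrich spermatogonial stem cells, measured 157, 67.7 and 138 CPM in wild type against 118, 11.6 and 48.4 CPM in Bud31-vKO, with overlapping groups. Itga8, an alpha chain of mesenchymal cells, was lower with no overlap, at 11.5, 19.3 and 27.6 CPM in wild type against 5.70, 0 and 0 CPM in Bud31-vKO. In the 4 fuller libraries the log2 fold changes were 2.0 for Itga3, -0.42 for Itga6 and -2.42 for Itga8, against 2.93, -1.03 and -3.35 in all 6. The interval of Itga8 held 0 in both sets, at -8.74 to 2.04 in all 6 and -7.49 to 2.66 in the 4. That of Itga6 also held 0, at -2.82 to 0.77 and -1.94 to 1.09.

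Matrix ligands had 11 of 16 genes above 0 and a median of 0.17. At an unadjusted p under 0.05, 1 was higher and 0 lower, against 1.08% and 1.82% of all tested genes, and DESeq2 called 0. Groups did not overlap for 2 higher and 0 lower of the list, against 4.76% and 6.39% of all genes. Lamb1, a laminin chain of basement membranes, measured 314, 270 and 261 CPM in wild type against 390, 909 and 589 CPM in Bud31-vKO, with no overlap (log2 fold change 1.16, standard error 0.36). The interval of Lamb1 was 0.34 to 1.99 in all 6 libraries. In the 4 fuller libraries its log2 fold change was 0.76, with an interval of -0.05 to 1.57 that held 0. Thbs1, a matrix protein that cells secrete at adhesions, measured 14.0, 15.4 and 0 CPM in wild type against 85.4, 66.6 and 43.3 CPM in Bud31-vKO. Its log2 fold change was 2.73 (interval -0.91 to 6.38) in all 6 libraries and 2.14 (interval 0.76 to 3.53) in the 4 fuller ones. Col4a2, a collagen of basement membranes, measured 159 ± 64.9 and 275 ± 93.7 CPM (n = 3 each, SD), with overlapping groups.

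Target genes of SRF and of YAP, the factors that respond to actin tension, had 11 of 20 above 0 and a median of 0.12. At an unadjusted p under 0.05 there were 2 higher, Fhl2 and Cald1, and 0 lower, against 1.08% and 1.82% of all tested genes. DESeq2 called these 2, where it called 0.255% of all genes higher. Fhl2, a LIM protein of stressed actin fibres, measured 27.8, 30.2 and 17.1 CPM in wild type against 88.8, 59.4 and 87.9 CPM in Bud31-vKO (log2 fold change 1.65, standard error 0.52). Cald1, the actin-binding caldesmon, measured 120, 112 and 107 CPM in wild type against 197, 180 and 239 CPM in Bud31-vKO (log2 fold change 0.86, standard error 0.29). Srf itself measured 95.7, 80.1 and 44.5 CPM in wild type against 134, 113 and 122 CPM in Bud31-vKO. These 3 were picked for the smallest p of the list and did not overlap between the groups, where 4.76% of all genes were higher without overlap. Of the same list, Cnn2, a calponin of actin fibres named after its values were seen, was lower without overlap, at 129 ± 8.62 CPM against 84.7 ± 26 CPM (n = 3 each, SD), where 6.39% of all genes were. Acta2, the smooth muscle actin and a target in the same list, measured 329 ± 262 CPM in wild type against 144 ± 79.1 CPM in Bud31-vKO (n = 3 each, SD).

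**Figure D3:**
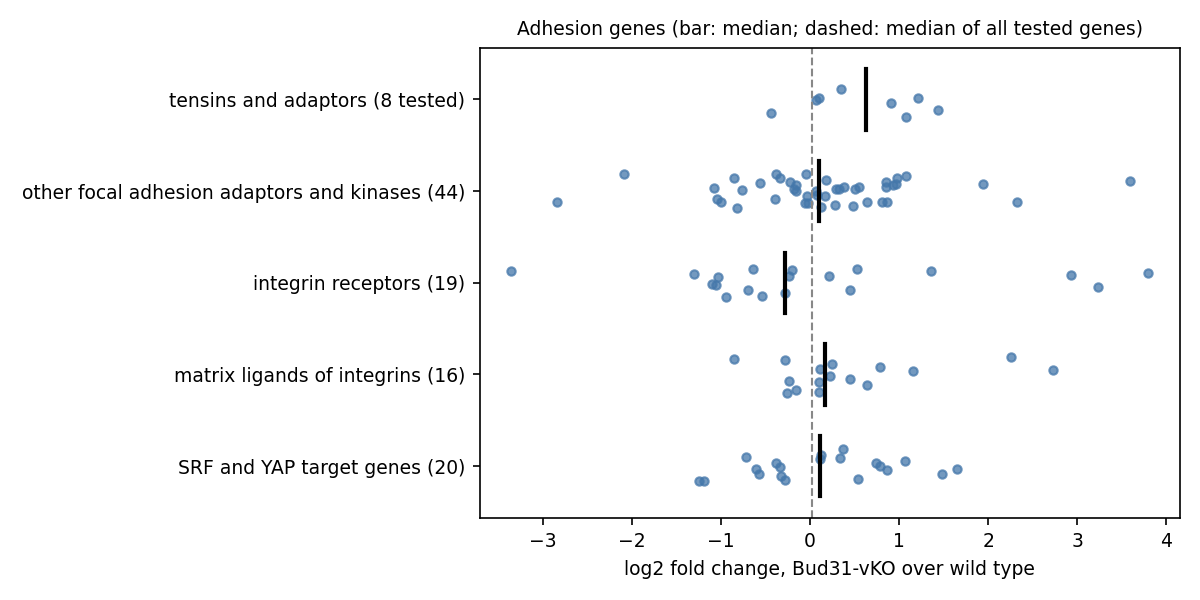
Log2 fold changes of single genes, Bud31-vKO over wild type, in the 8 tested tensins and adaptors and in 4 lists of pathway genes, with the median of each list as a bar and the median of all 15240 tested genes, 0.02, as a dashed line. The medians run from -0.28 for integrin receptors to 0.63 for the tensins and adaptors, or 0.34 without Tns1, which this contrast chose, and each list has genes on both sides of 0.

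The genes whose pattern over the 6 libraries lay closest to that of Tns1 were Rara, Cep250, Wiz, Ugcg and Rab11fip5. Likeness was the root mean square difference of log2 CPM after each gene was centred on its own mean, over the 7382 genes whose mean log2 CPM reached 4. Since Tns1 was chosen for its difference between the genotypes, genes close to it share that difference by construction. Rara, a retinoic acid receptor, came closest at 0.05, with 13.5, 14.7 and 12.8 CPM in wild type against 33, 47.7 and 39.7 CPM in Bud31-vKO. Cep250, a centrosome linker protein, lay at 0.20, Wiz, a zinc finger protein of a histone methyltransferase complex, at 0.22, Ugcg, the enzyme that makes glucosylceramide, at 0.22 and Rab11fip5, an endosome protein, at 0.22. Among the members, Pxn lay closest to Tns1 at 0.30, followed by Tns2 at 0.53, Ptk2 at 0.75, Zyx at 0.77, Tln1 at 0.88, Tns3 at 1.15 and Vcl at 3.0. Tns2 and Tns3 were thus farther from Tns1 in pattern than the scaffold Pxn was.

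Summed markers of cell types did not overlap between the genotypes in 2 of 10 lists. The gene given with each list has the highest mean over all 6 libraries, which need not hold within a genotype. The 13 germ cell markers summed to 3581 to 4184 CPM in wild type and to 1821 to 2694 CPM in Bud31-vKO. Of 12 tested, 0 were above 0, against 51.1% of all tested genes, and 4 were lower without overlap, against 6.39%. The 11 markers of T and natural killer cells summed to 16.6 to 59.8 CPM in wild type and to 103 to 163 CPM in Bud31-vKO, and Gzma, a granule protease, measured 2.22 ± 3.0 CPM in wild type, below 6 others of the list, and 42.7 ± 30.7 CPM in Bud31-vKO (n = 3 each, SD). Of the 10 tested in this list, 8 were above 0, against 51.1% of all tested genes, while Cd2 (-1.17) and Lck (-0.21) were below. Groups did not overlap for 2, Gzma and Klrb1c, both higher, against 4.76% of all genes higher. The T cell genes Cd3e, Cd3d, Cd3g and Trac overlapped between the genotypes. Between 0 and 8 of these 11 markers had no reads in a given library. The other sums overlapped between the genotypes. Peritubular myoid and smooth muscle markers, with Acta2, summed to 233 to 868 CPM in wild type against 180 to 486 CPM in Bud31-vKO. Sertoli cell markers, with Wt1, summed to 79.9 to 189 CPM and 38.9 to 429 CPM, and Leydig cell markers, with Star, to 0 to 17.5 CPM and 4.57 to 20.6 CPM. Endothelial markers, with Egfl7, summed to 11.5 to 196 CPM and 62.1 to 293 CPM, and macrophage markers, with Cd68, to 11.9 to 154 CPM and 13.3 to 113 CPM. Platelet markers, with Gp1ba, summed to 0.0582 to 9.06 CPM and 7.46 to 33.6 CPM, with Gp6 at 0 in all libraries, and erythroid markers, with Hba-a1, to 9.48 to 74.5 CPM and 1.07 to 216 CPM. Stromal fibroblast markers, with Col1a1 at 3931 ± 2082 CPM in wild type against 3245 ± 1314 CPM in Bud31-vKO (n = 3 each, SD), did not set the genotypes apart, and all 8 had reads in every library. The part of the lower germ cell sums and the higher T and natural killer cell sums in the levels of Tns1 and Pxn was not tested.

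**Figure D4:**
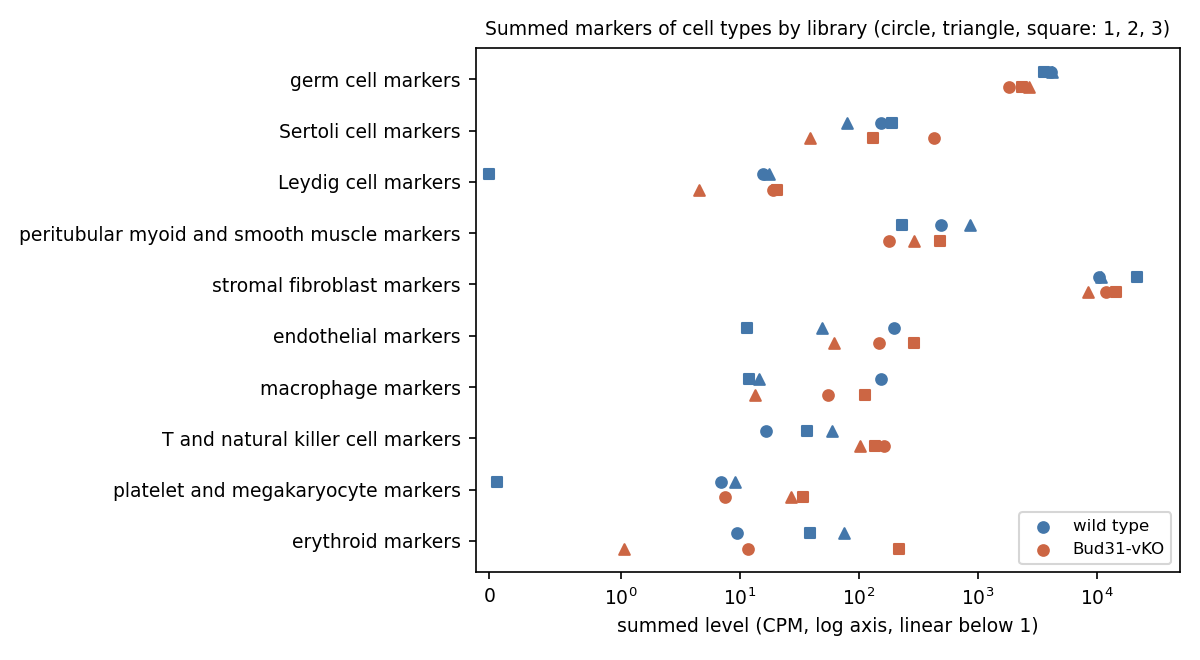
Summed levels of marker genes in TMM-scaled CPM for 10 cell types, 1 point per library (blue wild type, orange Bud31-vKO), on a log axis that is linear below 1. Germ cell markers are lower in every Bud31-vKO library and T and natural killer cell markers higher, while stromal fibroblast markers, at 8434 to 21739 CPM, are the most abundant and overlap between the genotypes.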

How the data were processed

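RNA was measured in 6 Smart-Seq2 libraries, 3 per genotype. The deposited table holds unscaled counts, in whole numbers, for each Ensembl gene. The submitters' processing notes name bcl2fastq and the mm10 build. The aligner, counter, annotation release and use of strand: not given in the sources used here. Columns were assigned to genotypes by their letters, C and T. Symbols and exons came from GENCODE M21 (GRCm38, also called mm10) for 99.6% of identifiers, promoters from RefSeq (8 of 10 members matched).

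Genes of low count were removed (filterByExpr, minimum count 10 and total 15), and the rest were scaled by TMM and compared in edgeR 4.0.16 with the quasi-likelihood test without covariates, adjusted by Benjamini-Hochberg at 5%. Standard errors are the size of the log2 fold change, taken before the small added count that damps the printed value in edgeR, divided by the root of F. The pattern measure used log2(CPM + 0.5). DESeq2 1.42.0, limma-voom (limma 3.58.1), other scalings and filters, a replicate block and libraries left out were alternatives. The fit was tested on simulated data with known fold changes. Few of the large changes were called at the spread of these libraries, and nearly all at a low spread. An absence of called genes here therefore does not show an absence of change. Members and lists were chosen with earlier results of these data known. Named genes were the members, Bud31, the 3 genes of smallest p in each pathway list (mean of at least 5 CPM), the 5 genes most like Tns1, and the top gene of each marker list. The 95% intervals come from the edgeR fit, and floors of reads cover counting error only. Analyses ran in R 4.3.3, figures in Python 3.11.15 with matplotlib 3.10.9.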

Additional observations from a re-analysis of the deposited data

How the results depend on the processing

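Over 17 alternatives Tns1 kept a log2 fold change above 0, between 1.29 and 1.57, and so did Tns2, Tns3, Zyx and Pxn. Tns1 was called only by DESeq2, at 1.49 (adjusted p = 0.000604), and at 1.49 (adjusted p = 0.0191) on the filtered genes, which, like the set of 4 libraries, was added after seeing the data. Its adjusted p was 0.753 or more in the others. The alternatives reuse the same 6 libraries, and their contrast chose Tns1. Nothing is therefore read from the direction or the calls of Tns1 here. Genes called numbered 0 by edgeR, 7 without a filter, 150 by DESeq2 and 47 by DESeq2 on the filtered genes. Leaving out each library in turn gave 0 called genes each time, 6 to 8 members above 0 and 1.33 to 1.57 for Tns1. It left 2 to 4 members without overlap, and the 4 fuller libraries gave 6. Such counts also rose over all tested genes. Groups did not overlap, in either direction, for 11.2% of genes at first and for 39.4% with the 4 fuller libraries. Dropping Bud31-vKO library 2 gave 24.9%, and dropping wild type library 3 gave 19.6%. Shares for the other sets are not given, so nothing is read from the rise among the members. Directions turned for 3 members. Tln1 ranged from -0.26 to 1.14 over the libraries left out, below 0 when wild type library 1 or 2 (-0.21) was removed. Vcl ranged from -0.93 to 0.15, above 0 when wild type library 3 (0.12) or Bud31-vKO library 2 was removed, and Ptk2 from -0.24 to 0.27, below 0 when Bud31-vKO library 2 was removed. In the 4 libraries Vcl had 0.70 and Ptk2 -0.20. The cause was not tested.

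With the replicate block Tns1 had 1.43, Vcl -1.44 and 0 genes were called, and limma-voom gave Vcl -2.72. The numbers are not shown to pair the libraries: same-numbered libraries correlated at 0.18, 0.07 and -0.05 in their deviations from the group means, and wild type library 3 correlated best with another number. Counts of 0 limit what can be said of Ilk and Parvb.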
